A study of Coryphaena hippurus with 27 samples.

Results

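The members described here are the names of miR-141, miR-200, miR-203, miR-205 and miR-429 in small RNA libraries of mahi-mahi, Coryphaena hippurus, a fast-growing pelagic fish. The 5 numbers were chosen with earlier results of these data known. Members were then taken by name alone, as every row of the count tables whose miRNA number is one of these 5, with any letter or arm. This gave 40 of 1449 names over the 6 tables, and 38 or 39 names in each table. The names divide into 11 of miR-200, 11 of miR-203, 10 of miR-205, 5 of miR-429 and 3 of miR-141.

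Embryos collected after natural spawns were exposed to oil of the Deepwater Horizon spill from just after fertilisation, in still water at 27 °C that was not renewed. Slick oil groups (labelled 1 g/l) and source oil groups (labelled 1 g/l) were each set against control groups (0 g/l, no agent) at 24, 48 and 96 hours post fertilisation (hpf). Both oils were given as a HEWAF, a high-energy water accommodated fraction, diluted in filtered seawater. Every library came from a pool of 30 animals, and each of the 9 groups had 3 libraries, 27 in all. The labels call the tissue whole embryo at every stage, 96 hpf included. They do not say whether the replicates came from separate spawns, so p-values measure the spread between these pools, which may be technical.

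In vertebrates miR-141 and miR-200a share a seed, the stretch near the 5′ end that pairs with target mRNAs, while miR-200b, miR-200c and miR-429 share another that differs by a single base. The miR-200 family is known for holding epithelial identity by repressing the ZEB transcription factors, and in zebrafish it is known from the olfactory epithelium. miR-203 drives keratinocytes out of the cell cycle and into differentiation in mouse skin, and miR-205 marks basal layers of stratified epithelia and is found in fish epidermis. In mammals miR-200b, miR-200a and miR-429 come from a shared transcript and miR-200c and miR-141 from another.

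Counts summed to between 51925 and 93055 per library, and levels below are normalised counts per 70000, scaled over all 27 libraries. Fold changes come from fits scaled over their own libraries alone, so they need not match the ratio of the levels beside them. Statements that the levels of oil libraries lay above or below controls rest on the scaling over all 27. Of the 40 member names, 31 had a mean count of at least 10 and 9 lay under it. Replicates often differed by less than the sampling of independent reads would give, and how reads were counted is not given in the sources used here. What 1 count stands for is therefore not settled, and levels and fold changes below are those of the deposited counts. Several names of a number carried almost equal counts. Grouping those whose counts differed by at most 10% left 15 sources of counts among the 31, so the names are not independent. miR-203 was the highest member, with a mean count of 567 per library or 0.783% of all counts. It was followed by miR-200b (mean count 284), miR-200a-3p (239), miR-429 (165), miR-141-3p (131), miR-205 (121) and miR-200c-3p (73.1). The 9 low names included miR-141-5p (mean count 0.963), miR-429b (5.59), miR-203c (0.037) and the opposite arms miR-203a-5p (3.59) and miR-429-5p (0.185).

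The label epithelial rests on the miRNA numbers, since no tissue was isolated. Every library also held counts of the neural miR-9-5p (322 to 771), the muscle miR-206 (447 to 717), the liver miR-122-5p (90 to 314) and the mesenchymal miR-199 (up to 439). The epithelial miR-184 had 177 to 355 counts and miR-31-5p had 1 to 20. In such bulk samples fewer cells of a type and less RNA per cell cannot be told apart.

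**Figure D1:**
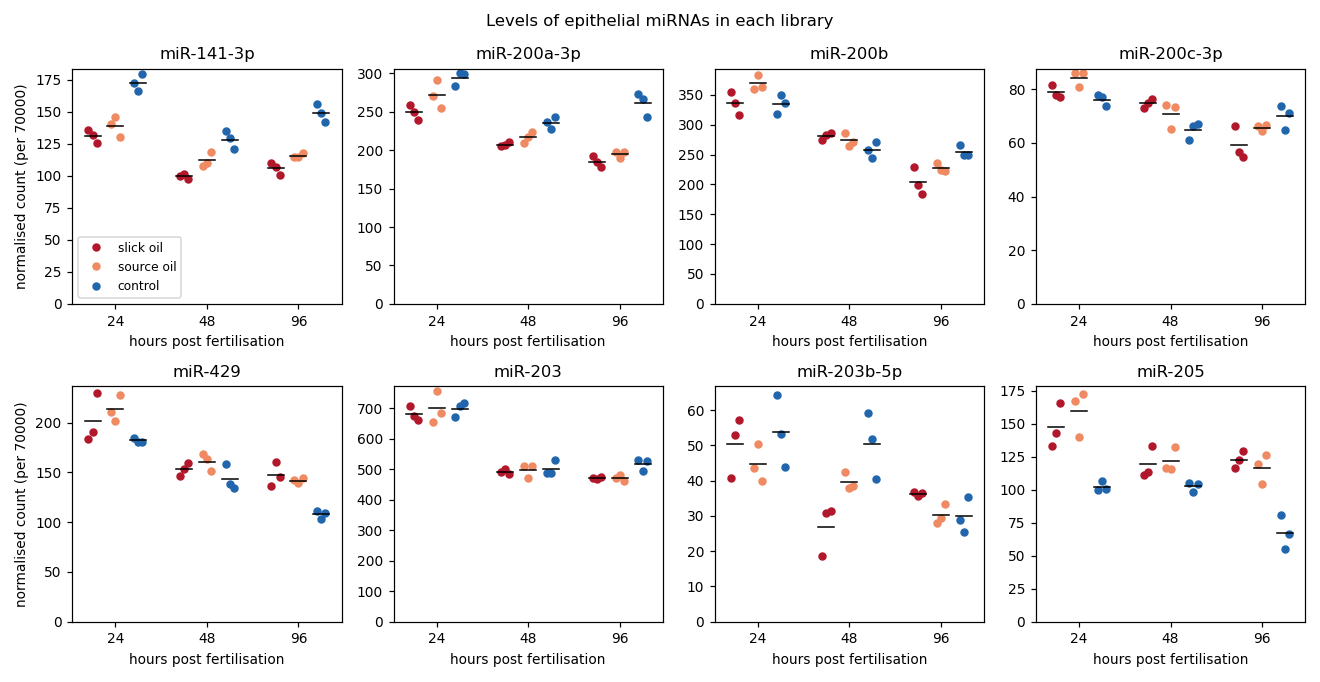
Normalised counts per 70000 (y axis, from 0) of 8 member names in each of the 27 libraries, by hours post fertilisation (x axis), with slick oil, source oil and control from left to right and a line at each group mean. The oil libraries of miR-205 lie above the controls at every stage, those of miR-141-3p and miR-200a-3p lie mostly below, and miR-203 is almost level across treatments.

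The control libraries gave the course of these miRNAs in undisturbed development. Between 24 and 48 hpf names of miR-141, miR-200, miR-203 and miR-429 fell and no miR-205 name was called. miR-203 averaged 500 ± 24.7 normalised counts at 48 hpf, against 698 ± 23.7 at 24 hpf (SD, n = 3 each; log2 fold change -0.52 ± 0.07 SE, adjusted p = 1.83e-06, edgeR's quasi-likelihood test). miR-141-3p averaged 128 ± 7.13 at 48 hpf, against 173 ± 6.88 at 24 hpf (-0.46 ± 0.07, adjusted p = 1.93e-05), and the fitted changes of miR-200a-3p, miR-200b and miR-429 were -0.36, -0.42 and -0.38. The level of miR-200-3p fell further, averaging 22.6 ± 3.41 at 48 hpf, against 45.1 ± 3.92 at 24 hpf. The lowest fitted change of a miR-200 name was -1.01. Of 28 member names tested, 15 were lower at 48 hpf and 0 higher, beside 22% of all 605 names lower and 23.3% higher. These 15 names stem from 7 sources. miR-205-5p averaged 102 ± 2.33 at 48 hpf, against 99.3 ± 2.87 at 24 hpf, with a fitted difference of -0.01 ± 0.09 that did not pass the test.

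The later step from 48 to 96 hpf divided the members. The miR-205 and miR-429 names fell, with miR-205-5p at 66.1 ± 10 normalised counts at 96 hpf, against 102 ± 2.33 at 48 hpf (SD, n = 3 each; log2 fold change -0.65 ± 0.11 SE, adjusted p = 1.89e-05 by edgeR). miR-429 averaged 108 ± 4.08 at 96 hpf, against 143 ± 13 at 48 hpf (-0.44 ± 0.08, adjusted p = 1.1e-04). The low-count miR-205b (-1.09 ± 0.25) and miR-203-5p, the opposite arm of miR-203 (-0.82 ± 0.19), fell as well. The miR-205b controls of 96 hpf did not all reach the count filter (lowest count 8), so the name entered with the controls of earlier stages. Its call here is therefore not counted as support. miR-141 rose (0.37 ± 0.09, adjusted p = 0.00485), whereas its 3p name changed by 0.18 ± 0.08 and did not pass. In all, 1 of 28 member names was higher and 11 were lower at 96 hpf, beside 29.6% and 29.1% of 605 names. The lower names still hold miR-205b and miR-200a-2-5p, which entered through earlier stages. miR-200a-3p, miR-200b, miR-200c-3p and miR-203 moved by 0.12, -0.03, 0.09 and 0.03.

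Against this course, the oil groups were each compared with the controls of their own stage. At 24 hpf, 6 of 30 tested member names were higher and 4 lower under slick oil, beside 21.3% of 616 names higher and 17.4% lower. Under source oil 6 of 31 were higher and 1 lower, beside 14.2% and 12.2% of 600 names. At 48 hpf slick oil gave 2 of 30 higher and 5 lower, beside 19.5% and 21.3% of 642 names, and source oil gave 1 of 30 higher and 0 lower, beside 9.22% and 10.1% of 651 names.

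At 96 hpf 11 of 30 member names were higher and 7 lower under slick oil, beside 32.5% and 27.6% of 671 names. Source oil gave 10 of 29 higher and 4 lower, beside 28.3% and 19.7% of 661 names. The called names stem from 5, 5 and 9 sources under slick oil at 24, 48 and 96 hpf and from 3, 1 and 7 sources under source oil. These source counts hold miR-205-3p for source oil at 24 hpf and slick oil at 96 hpf, and miR-205b for both oils at 96 hpf. Each is a source of its own, and these calls are not counted as support, as described below. At 96 hpf the members' median log2 fold change was 0.01 for slick oil and 0.08 for source oil, beside -0.01 and 0.03 over all names. The members as a whole were thus called about as often as other names at 96 hpf, and what follows concerns which of them moved in which direction.

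miR-205, the miRNA of basal epithelial layers, was higher under both oils at 24 and 96 hpf. At 24 hpf miR-205 had 133, 143 and 166 normalised counts in the slick oil libraries and 167, 140 and 172 in the source oil libraries, against 99.8, 106 and 100 in the controls. All 6 oil libraries lay above all 3 controls. How often the levels of other single names separate in this way was not counted, so separation of a name is description only, here and below. The log2 fold change was 0.51 ± 0.11 under slick oil (SE; adjusted p = 0.00501) and 0.64 ± 0.11 under source oil (adjusted p = 9.07e-04), both by edgeR's quasi-likelihood test.

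At 48 hpf miR-205 had 111, 114 and 133 normalised counts under slick oil and 117, 116 and 132 under source oil, against 105, 98.2 and 104 in controls. The groups again did not overlap, but the differences were smaller and did not pass the adjusted test (0.23 ± 0.09 with slick oil at adjusted p = 0.0832, 0.23 ± 0.08 with source oil at adjusted p = 0.108). At 96 hpf miR-205 had 116, 122 and 129 normalised counts under slick oil and 120, 104 and 126 under source oil, against 80.8, 55.3 and 66.1 in controls. The oil libraries were close to their level at 48 hpf, while the controls were lower at 96 hpf than at either earlier stage. The change was 0.93 ± 0.11 (adjusted p = 2.98e-09) under slick oil and 0.90 ± 0.11 (adjusted p = 3.46e-11) under source oil. The control counts of miR-205 at 96 hpf differ slightly between the tables of the 2 oils (70, 52 and 67 beside the slick libraries, 65, 52 and 69 beside the source libraries). miR-205-5p, whose control counts are equal in both tables, gave 0.89 ± 0.11 and 0.90 ± 0.11.

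Leaving out miR-205-3p, which is described separately, 6 of 6 tested miR-205 names passed as higher at 24 hpf under slick oil and 5 of 6 under source oil. At 48 hpf 0 of 6 passed under either oil, by edgeR, and at 96 hpf 6 of 6 passed under both. Most of these names share the counts of miR-205, and miR-205b and miR-205-3p are separate. miR-205b had 19.1, 19.4 and 19.8 normalised counts at 96 hpf under slick oil and 19.1, 15.5 and 15.9 under source oil, against 9.23, 9.57 and 8.87 in controls (1.12 ± 0.25, adjusted p = 6.6e-04; 0.94 ± 0.23, adjusted p = 0.00928). With the trend of fold change over abundance removed, neither miR-205b call at 96 hpf passed (adjusted p = 0.0578 and 0.152). The miR-205b controls of 96 hpf did not all reach the count filter (lowest count 8), so the name entered with its oil libraries. Its calls at 96 hpf are therefore not counted as support beside those of miR-205. At 24 hpf its call under slick oil (0.67 ± 0.24, adjusted p = 0.0418) ended when any library other than slick oil replicate 1 was left out, and was not made by DESeq2 (adjusted p = 0.216).

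The opposite arm, miR-205-3p, rested on counts of 3 to 40 per library. It had 10.8, 15.8 and 39.5 normalised counts with slick oil and 21.8, 15.9 and 28.3 with source oil at 24 hpf, against 7.95, 7.59 and 8.55 in controls. At 96 hpf miR-205-3p had 8.84, 14.9 and 11.4 under slick oil and 7.17, 14 and 14.4 under source oil, against 4.62, 3.19 and 2.96 in controls. Every oil library of these stages lay above every control of its stage. The name entered the test under source oil at 24 hpf (1.44 ± 0.30) and under slick oil at 96 hpf (1.75 ± 0.33), passing the count filter through its oil libraries. A name that enters in this way had to differ, so its calls (adjusted p = 0.00219 and 2.18e-04) are not counted as support. Without it the member counts above are 5 of 30 higher under source oil at 24 hpf and 10 of 29 higher under slick oil at 96 hpf. The member counts of 96 hpf still hold miR-205b for both oils. With the trend over abundance removed the miR-205-3p call under slick oil at 96 hpf did not pass (1.01, adjusted p = 0.0507).

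miR-141-3p, of the miR-141 and miR-200a seed, was lower under both oils. At 24 hpf miR-141-3p had 136, 132 and 125 normalised counts under slick oil and 140, 146 and 130 under source oil, against 172, 166 and 180 in controls. At 48 hpf it had 99.9, 101 and 97.3 under slick oil and 108, 110 and 118 under source oil, against 135, 129 and 121 in controls. Later, at 96 hpf, it had 110, 107 and 100 under slick oil and 115, 114 and 118 under source oil, against 156, 149 and 142 in controls. No oil library reached the lowest control of its stage. The log2 fold changes under slick oil were -0.43 ± 0.08 (adjusted p = 0.00233), -0.36 ± 0.08 (adjusted p = 0.00407) and -0.43 ± 0.08 (adjusted p = 5.73e-05) at 24, 48 and 96 hpf. Under source oil they were -0.33 ± 0.09 (adjusted p = 0.00989), -0.22 ± 0.07 (adjusted p = 0.128) and -0.28 ± 0.08 (adjusted p = 0.0107), by edgeR. In the authors' deposited table neither slick oil call at 24 hpf (adjusted p = 0.0516) nor that at 48 hpf (adjusted p = 0.0727) was made. For source oil DESeq2 gave adjusted p = 0.156 at 24 hpf and 0.0557 at 96 hpf. The source oil calls also ended without control replicate 3 (adjusted p = 0.0525) or source oil replicate 3 (adjusted p = 0.0855) at 24 hpf, and without control replicate 7 (adjusted p = 0.0504) at 96 hpf.

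miR-200a-3p, the relative of miR-141 by seed, had 258, 250 and 240 normalised counts at 24 hpf under slick oil and 271, 292 and 255 under source oil, against 283, 300 and 299 in controls. Its means at 48 hpf were 207 ± 2.68 under slick oil and 217 ± 6.76 under source oil, against 236 ± 8.08 in controls (SD, n = 3 each). At 96 hpf miR-200a-3p had 192.2, 185 and 178 under slick oil and 198, 190 and 197 under source oil, against 274, 267 and 244 in controls. Only source oil at 24 hpf overlapped its controls. miR-200a-3p fell under slick oil at 24 hpf (-0.27 ± 0.06, adjusted p = 0.00717). At 96 hpf its change was -0.44 ± 0.07 with slick oil (adjusted p = 1.01e-06), and with source oil it was -0.34 ± 0.07 (adjusted p = 3.1e-05), both called. The call at 24 hpf was not made by DESeq2 (adjusted p = 0.0879) or in the authors' deposited table (adjusted p = 0.121). At 48 hpf the changes were -0.17 ± 0.06 (adjusted p = 0.0672) and -0.13 ± 0.06 (adjusted p = 0.229). The name miR-200a, with almost the same counts, passed at 48 hpf under slick oil (-0.18 ± 0.06, adjusted p = 0.0496), so this comparison lay at the threshold.

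miR-200b, miR-200c and miR-429, which share the other seed, are given next. miR-200b had 355, 337 and 317 normalised counts with slick oil and 359, 384 and 364 with source oil at 24 hpf, against 318, 350 and 337 in controls. Its values at 48 hpf were 275, 283 and 287 under slick oil and 286, 264 and 271 under source oil, against 257, 244 and 271 in controls. At 24 hpf slick oil overlapped the controls and the source oil libraries lay above them, and at 48 hpf the slick libraries lay just above the controls while source oil overlapped them. At 96 hpf miR-200b had 229, 199 and 183.9 under slick oil and 235, 225 and 222 under source oil, against 267, 249 and 248 in controls. Of the 6 comparisons it passed in that of slick oil at 96 hpf (-0.26 ± 0.07, adjusted p = 0.00227), a call that ended with the trend over abundance removed (-0.12, adjusted p = 0.167). The source oil libraries of 96 hpf also lay below the controls, and with all groups in 1 fit that change of miR-200b passed (-0.19, adjusted p = 0.0263), against -0.08 (adjusted p = 0.33) in the fit of the 2 groups. In the other 5 comparisons its log2 fold change lay between -0.08 and 0.15, although miR-200b-3p, of almost the same counts, passed under slick oil at 48 hpf (0.17 ± 0.06, adjusted p = 0.0455). miR-200c-3p did not pass in any of the 6 comparisons, with changes of 0.02, 0.22 and -0.18 under slick oil and 0.13, 0.12 and -0.01 under source oil at 24, 48 and 96 hpf. miR-200c-3p had 66.3, 56.6 and 54.7 normalised counts under slick oil and 66.2, 64.5 and 66.5 under source oil at the last stage, against 73.9, 64.9 and 71 in controls. Its 9 group means ran from 59.2 to 84.3.

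miR-429, which shares its seed with miR-200b and miR-200c, was higher under both oils at 96 hpf. It had 136, 160 and 146 normalised counts under slick oil and 142, 139 and 144 under source oil at that stage, against 111, 103 and 109 in controls. The groups were well apart, and the control level was the lowest of the 9 groups. The log2 fold change was 0.51 ± 0.09 (adjusted p = 5.05e-06) under slick oil and 0.47 ± 0.08 (adjusted p = 2.16e-05) under source oil, and all 3 tested miR-429 names passed in both. These 3 names are 1 source of counts. In the authors' deposited table for source oil at 96 hpf miR-429 passed (adjusted p = 0.00485), miR-429-3p lay at the threshold (0.0499) and miR-429a did not pass (0.0717). At 24 hpf miR-429 had 183.9, 190 and 230 under slick oil and 211, 202 and 228 under source oil, against 185, 181 and 181 in controls, and neither change (0.13 ± 0.11 and 0.21 ± 0.09) passed. At 48 hpf it had 146, 154 and 159 under slick oil and 169, 163 and 151 under source oil, against 158, 138 and 134 in controls. These groups overlapped, and the changes were 0.10 ± 0.07 and 0.14 ± 0.07, with no call.

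The name miR-200-3p has a count profile of its own among the miR-200 names. At 48 hpf miR-200-3p had 47.4, 54.2 and 48.1 normalised counts under slick oil and 50.1, 34.9 and 53.5 under source oil, against 24.9, 24.1 and 18.7 in controls. The oil means at 48 hpf (49.9 and 46.2) were near that of the controls at 24 hpf (45.1), and all 6 oil libraries lay above the controls of their stage (1.13 ± 0.20, adjusted p = 6e-07; 1.00 ± 0.20, adjusted p = 3.96e-04). In the libraries of 96 hpf it had 65.6, 43.2 and 30.4 under slick oil and 57.4, 53.6 and 55.2 under source oil, against 34.6, 24.5 and 24.7 in controls. The slick libraries spread widely there, and the call under slick oil (0.81 ± 0.22, adjusted p = 0.00172) ended without slick oil replicate 7 (0.49, adjusted p = 0.0692) and was not made by DESeq2 (adjusted p = 0.0774). Under source oil the change was 1.08 ± 0.17 (adjusted p = 1.13e-07). Which miR-200 gene this name stands for is not given in the sources used here.

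miR-203, the miRNA of keratinocyte differentiation and the highest member, did not pass in any oil comparison. miR-203 had 707, 675 and 662 normalised counts with slick oil and 656, 756 and 685 with source oil at 24 hpf, against 672, 706 and 717 in controls. At 48 hpf it had 489, 499 and 485 under slick oil and 512, 470 and 509 under source oil, against 486, 486 and 529 in controls. The groups overlapped at both stages. At 96 hpf miR-203 had 470, 468 and 474 under slick oil and 472, 481 and 463 under source oil, against 531, 496 and 526 in controls, so the oil libraries lay below the controls there, while the fitted changes of -0.08 ± 0.05 (adjusted p = 0.22) and -0.06 ± 0.05 (adjusted p = 0.385) did not pass. With all groups in 1 fit miR-203 passed as lower at 96 hpf for each oil, by -0.17 with slick oil (adjusted p = 0.00224) and by -0.16 with source oil (adjusted p = 0.00749). Once the abundance trend was taken out, miR-203 instead passed as higher (0.23 and 0.22), so its direction at this stage depends on the scaling.

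The opposite arm of miR-203 moved at 48 hpf. miR-203b-5p had 18.5, 30.7 and 31.4 normalised counts under slick oil and 42.4, 37.9 and 38.5 under source oil, against 59.3, 51.7 and 40.6 in controls. The slick libraries lay below all controls, and source oil overlapped them. It fell under slick oil (-0.92 ± 0.20, adjusted p = 3.21e-05) and changed by -0.39 ± 0.16 under source oil (adjusted p = 0.0859). At 24 hpf the changes were -0.12 ± 0.19 and -0.31 ± 0.19, and at 96 hpf they were 0.33 ± 0.18 and 0.08 ± 0.19, none past the threshold. The 5p values at 96 hpf were 36.8, 35.7 and 36.5 under slick oil and 27.9, 29.5 and 33.3 under source oil, against 28.9, 25.5 and 35.5 in controls. Its 3 names, miR-203-5p, miR-203b and miR-203b-5p, share these counts.

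The remaining names past the count filter are 5p names of miR-200 and the second miR-141 name. miR-200a-5p and miR-200b-5p, with mean counts of 29 and 27.9, were not called in any oil comparison, and their changes lay between -0.23 and 0.33. miR-200a-2-5p, with a mean count of 11, averaged 18.3 ± 2.66 normalised counts with slick oil at 24 hpf, against 11.3 ± 0.923 in controls (0.65 ± 0.23, adjusted p = 0.0834), and did not pass there or in the 3 other oil comparisons that tested it. In controls it was lower at 96 than at 48 hpf (-1.25 ± 0.34, adjusted p = 0.016), a call that DESeq2 did not make (adjusted p = 0.104) and that ended without control replicate 5 (adjusted p = 0.0819) or 8 (adjusted p = 0.0624). The controls of 96 hpf had 3.19 to 4.93 normalised counts of miR-200a-2-5p, so it entered through earlier stages and this call is not counted as support. miR-141 changed as its 3p name did where it was called, by -0.37 ± 0.09 for slick oil at 24 hpf (adjusted p = 0.00913) and by -0.51 ± 0.10 and -0.37 ± 0.10 for slick and source oil at 96 hpf (adjusted p = 5.52e-05 and 0.00456). The call at 24 hpf was not made in the authors' deposited table (adjusted p = 0.18). miR-141 was not called for slick oil at 48 hpf (-0.17) or for source oil at 24 and 48 hpf (-0.28 and -0.11). Its source oil libraries of 48 hpf (70.3 to 85.5) overlapped the controls (81 to 87.6).

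**Figure D2:**
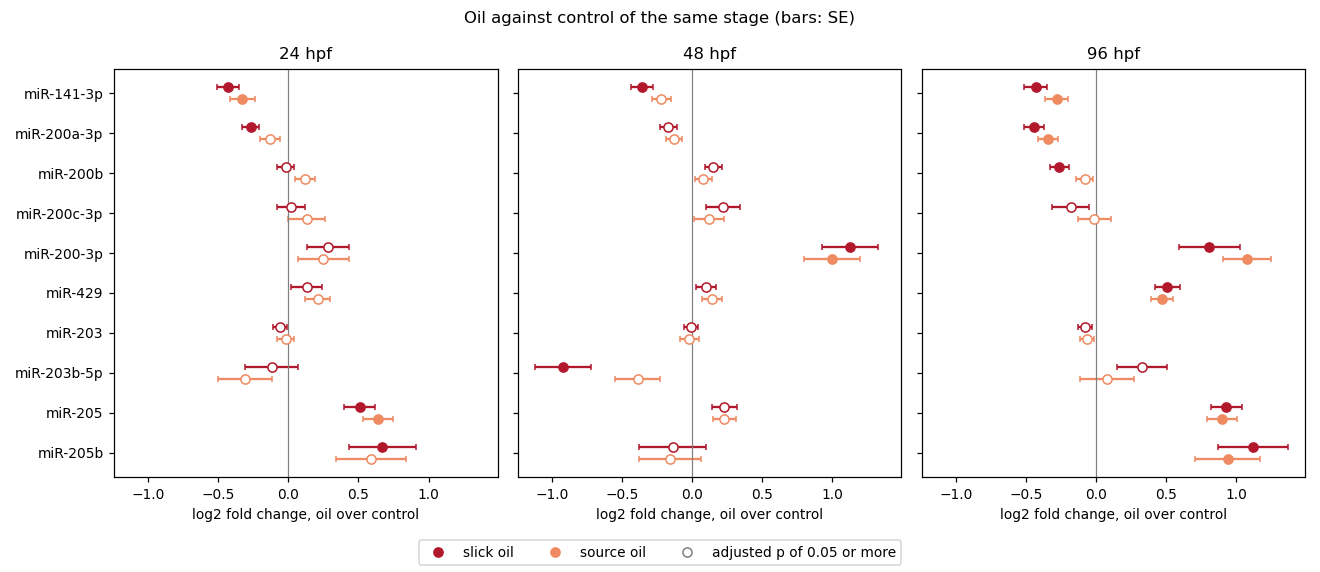
Log2 fold change of oil over control (x axis) with its SE, for 10 member names (rows) at 24, 48 and 96 hpf (panels), with slick oil above source oil and open points where the adjusted p was 0.05 or more. miR-205 is to the right of 0 and miR-141-3p and miR-200a-3p to the left in every panel, and miR-429 is to the right at 96 hpf.

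Ratios of counts within a library compare members without any scaling between libraries, but they keep any trend of fold change over abundance. Separation of oil from control is common for such ratios. Among all 20503 pairs of names with a mean count of at least 50, taking 1 name per number and letter, 56.5% of ratios at 24 hpf did not overlap between slick oil and control and 44.7% did not between source oil and control. The shares were 56% and 44.5% at 48 hpf and 69.8% and 64.6% at 96 hpf. A pair without overlap in the same direction in all 6 comparisons was less common, at 13%, and the comparisons of a stage share their controls.

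The member pairs below were chosen after the values were seen, so they are described with no test. Ratios given with an SD are arithmetic means, while percentages of control come from the difference between groups in mean log2 ratio. The ratio of miR-200a-3p to miR-200b at 24 hpf was 0.743 ± 0.0141 under slick oil and 0.738 ± 0.0331 under source oil, against 0.879 ± 0.0189 in controls (SD, n = 3 each). At 48 hpf the ratio was 0.737 ± 0.00732 under slick oil and 0.795 ± 0.0525 under source oil, against 0.917 ± 0.0172 in controls. At 96 hpf it was 0.912 ± 0.0656 under slick oil and 0.858 ± 0.0262 under source oil, against 1.03 ± 0.0462 in controls. In all 6 comparisons every oil library lay below every control, at 80.4 to 88.7% of control.

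The same held for miR-141-3p to miR-200c-3p, the pair of the other mammalian cluster. It was 1.66 ± 0.0337 with slick oil and 1.65 ± 0.149 with source oil at 24 hpf, against 2.27 ± 0.147 in controls, and 1.33 ± 0.0506 and 1.59 ± 0.119 at 48 hpf, against 1.99 ± 0.207 in controls. At the last stage it was 1.79 ± 0.124 under slick oil and 1.76 ± 0.0214 under source oil, against 2.13 ± 0.149 in controls. The groups did not overlap in any of the 6 comparisons, at 67.2 to 84.1% of control. With the names miR-141 and miR-200c in their place, 5 of 6 comparisons had no overlap, at 76.7 to 86.7%, the exception being source oil at 48 hpf.

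miR-200a-3p to miR-429, also of a shared mammalian cluster, was lower without overlap in all 6 comparisons. At 96 hpf it was 1.26 ± 0.134 under slick oil and 1.37 ± 0.0165 under source oil, against 2.43 ± 0.185 in controls, which is 51.9 and 56.7% of control. miR-205-5p to miR-203-3p was higher without overlap in all 6. It was 0.251 ± 0.0128 with slick oil and 0.247 ± 0.0288 with source oil at 96 hpf, against 0.128 ± 0.0151 in controls, with slick oil at 197% of control. At 48 hpf it stood at 118 and 120% of control.

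**Figure D3:**
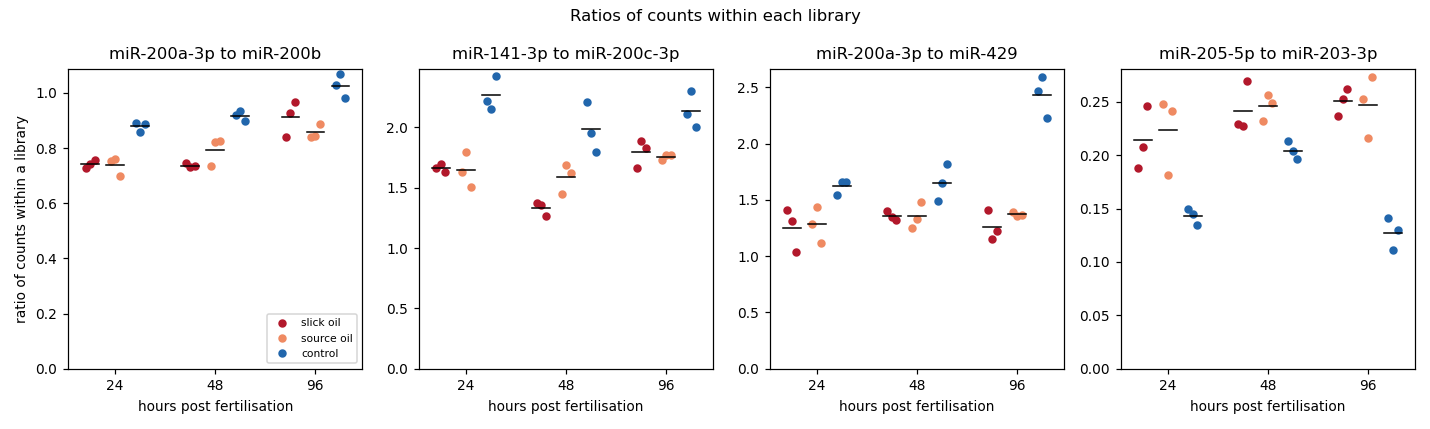
Ratio of the counts of 2 members within each library (y axis, from 0) by hours post fertilisation (x axis), with slick oil, source oil and control from left to right and a line at the group mean. In the first 3 panels every oil library lies below the controls of its stage, and in the last panel every oil library lies above them.

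Ratios between the arms of a hairpin were described in the same way. Each of these pairs holds a name with a mean count under 50, so the shares of separation given above do not cover these ratios. How often arm ratios of other hairpins separate was not counted, so a lack of overlap here is description only. The ratio of miR-205-3p to miR-205-5p was 162 to 232% of control over the 6 comparisons, by mean log2 ratio and on low counts of the 3p arm. Its groups did not overlap in 3 of the 6, which were source oil at 24 hpf and slick oil at 48 and 96 hpf. miR-203-5p to miR-203-3p was 0.053 ± 0.013 under slick oil at 48 hpf, against 0.0981 ± 0.0227 in controls, which is 53.8% of control. At 96 hpf it was 0.0727 ± 0.00279 under slick oil, against 0.0545 ± 0.00839 in controls, which is 134%. Neither pair of groups overlapped, and the 4 other comparisons of this ratio did. miR-200a-5p to miR-200a-3p was 145% of control with slick oil and 152% with source oil at 96 hpf without overlap, on mean counts of 29 and 239. At that stage names with a mean count under 50 had a median log2 fold change of 0.28 under either oil. Names with a mean count of at least 200 had -0.23 under slick oil and -0.22 under source oil. The part of this trend in the arm ratios of 96 hpf was not tested. miR-200b-5p to miR-200b-3p overlapped with control in all 6 comparisons, at 93.7 to 118%.

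The 2 oils were compared directly within each stage, in fits that also held the controls. No member passed, with 0 of 31 at 24 hpf, 0 of 30 at 48 hpf and 0 of 30 at 96 hpf by edgeR, while 2, 3 and 1 members had an unadjusted p under 0.05. DESeq2 called 0 members at each stage. Among all names 1.16% were higher and 0% lower under slick oil at 24 hpf, 4.87% and 0.628% at 48 hpf, and 2.24% and 2.39% at 96 hpf. The difference of miR-205-5p, slick minus source on the log2 scale, was -0.10 (95% interval -0.33 to 0.12) at 24 hpf, -0.00 (-0.15 to 0.14) at 48 hpf and 0.02 (-0.15 to 0.19) at 96 hpf. That of miR-141-3p was -0.10 (-0.27 to 0.08), -0.13 (-0.29 to 0.02) and -0.12 (-0.28 to 0.05) at the same stages. miR-203b-5p at 48 hpf differed by -0.52 (-0.91 to -0.12; adjusted p = 0.143). Without slick oil replicate 7, miR-200-3p passed as lower under slick oil at 96 hpf (-0.56, adjusted p = 0.0199).

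Whether the effect of an oil differed between stages was tested by both oil-by-stage terms together. Under slick oil 13 of 29 member names passed, beside 37.2% of 631 names, and under source oil 5 of 29 passed, beside 20.1% of 643 names. For miR-205-5p the log2 effect of slick oil at 48 hpf minus that at 24 hpf was -0.31 ± 0.15, and that at 96 hpf minus that at 24 hpf was 0.28 ± 0.16 (SE; adjusted p = 0.0126). For source oil these differences were -0.38 ± 0.14 and 0.22 ± 0.15 (adjusted p = 0.0131). DESeq2 did not call either (adjusted p = 0.0889 and 0.081). The slick oil call also ended without slick replicate 4 (adjusted p = 0.0552), control replicate 4 (adjusted p = 0.0665) or control replicate 8 (adjusted p = 0.0834), and the source oil call without control replicate 8 (adjusted p = 0.0529). miR-203b-5p differed by -0.80 ± 0.26 at 48 hpf and 0.37 ± 0.26 at 96 hpf relative to 24 hpf under slick oil (adjusted p = 0.00398). miR-141-3p, lower at all stages, did not pass this test (adjusted p = 0.703 for slick oil, 0.764 for source oil).

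At 96 hpf fold changes moved with abundance over all names, and library totals were 89482 to 93055 under slick oil and 86977 to 90152 under source oil, against 63162 to 75228 in controls. The median over names with a mean count under 50 was a log2 fold change of 0.28 under either oil, and that over names with a mean count of at least 200 was -0.23 under slick oil and -0.22 under source oil. Its part in the members' changes was not tested beyond the alternative that removes the trend. Under that alternative miR-205, miR-429, miR-141-3p and miR-200a-3p kept their calls at 96 hpf under both oils.

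**Figure D4:**
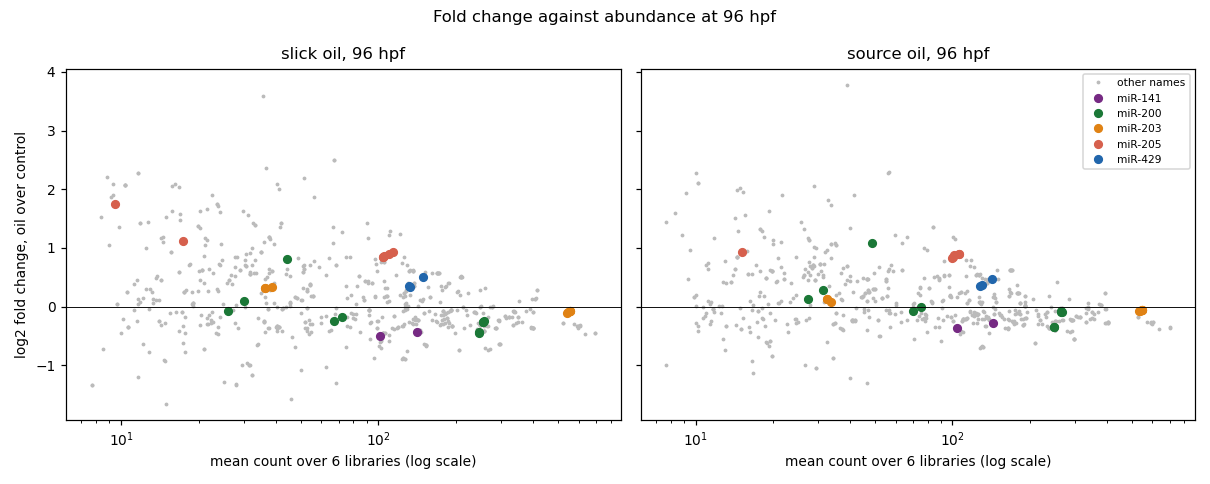
Log2 fold change of oil over control at 96 hpf (y axis) against mean count (x axis, log scale) for each tested name under slick oil (left) and source oil (right), with member names in colour by miRNA number. The miR-205 and miR-429 names lie above 0, the miR-141 names lie below 0, and the miR-203 names of the main arm lie at the high end near 0.

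Lists of other tissue miRNAs were counted beside the shares over all names, which at 96 hpf were 32.5% higher and 27.6% lower for slick oil and 28.3% higher and 19.7% lower for source oil. At that stage the names of the mesenchymal miR-199, miR-214, miR-143 and miR-145 were higher in 5 and lower in 17 of 25 under slick oil, and higher in 5 and lower in 11 of 25 under source oil. The neural names of miR-9 and miR-124 were higher in 2 and lower in 17 of 41 under slick oil, and higher in 0 and lower in 12 of 41 under source oil. Muscle names of miR-1, miR-133 and miR-206 divided into 12 higher and 8 lower of 29 for slick oil and 11 higher and 8 lower of 29 for source oil. The liver list, miR-122, had 3 higher and 3 lower of 6 names for each oil. The red blood cell miR-144 and miR-451 had 4 higher and 3 lower of 7 names for slick oil, and 4 higher and 1 lower of 7 for source oil. Names of 1 number may share counts, as among the members, so names within a list are not independent. The 6 liver names are of 1 number and the 7 red blood cell names of 2. The list of other epithelial miRNAs (miR-31, miR-96, miR-182, miR-183, miR-184, miR-192, miR-194 and miR-215) divided into 9 higher and 10 lower of 28 under slick oil and 9 higher and 6 lower of 28 under source oil, with medians of -0.04 and -0.07. At 24 hpf, where 21.3% of all names were higher and 17.4% lower for slick oil and 14.2% and 12.2% for source oil, the neural names were higher in 0 and lower in 10 of 35 for slick oil. For source oil at 24 hpf they were higher in 0 and lower in 11 of 34. Muscle names at 24 hpf were 5 higher and 5 lower of 30 for slick oil and 4 higher and 6 lower of 30 for source oil. The part of shifts in tissue makeup in the members' changes was not tested.

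The order of the 9 group levels differed between members. miR-141-3p was highest in the control groups of 24 hpf (173) and 96 hpf (149), and only the first of these stood clear of the next group. It was lowest under slick oil at 48 hpf (99.5), which did not differ beyond its spread from slick oil at 96 hpf (106). miR-205 was highest under source oil (160) and slick oil (147) at 24 hpf, which overlapped each other. Its next 4 levels, of both oils at 48 and 96 hpf, ran from 117 to 123 and overlapped, and the control of 96 hpf (67.4) was below every other group. miR-203 fell into the 3 groups of 24 hpf (681 to 699) and the 6 later ones (471 to 517).

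Names outside the members were ranked by the correlation of mean log2 levels over the 9 groups, which share stage and treatment, among 554 names. This is a description with no test. The names most like miR-205-5p were miR-20b-5p (r = 0.98), miR-18a-3p (0.96) and miR-30b (0.95). Those most like miR-429 were miR-17-5p (0.98), miR-106a (0.97) and miR-196b (0.96), and those most like miR-200b were miR-196 (0.97), miR-21-5p (0.96) and miR-375a-3p (0.96). For miR-200a-3p they were miR-148 (0.97), miR-152 (0.93) and miR-9-2-5p (0.92), and for miR-141-3p they were miR-148b-3p (0.91), miR-152 (0.91) and miR-218a-5p (0.89). For miR-203 they were miR-146a-5p (0.98), miR-30d-2-3p (0.92) and miR-152-5p (0.92), and for miR-200c-3p miR-21b-5p (0.93), miR-206 (0.92) and miR-22-3p (0.91).

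The authors' deposited table of each comparison was read at an adjusted p under 0.05. In the authors' deposited table of 24 hpf, 5 of 31 member names with an adjusted p were higher and 0 lower for slick oil. For source oil 5 of 29 were higher and 0 lower. For both oils these 5 names share the counts of miR-205, so they are 1 source. In the authors' deposited table of 48 hpf, 2 of 32 were higher and 3 lower for slick oil, whereas for source oil 1 of 32 was higher and 0 were lower. For slick oil at 96 hpf the authors' deposited table had 10 of 33 higher and 7 lower, whereas for source oil it had 9 of 34 higher and 4 lower. The higher names include miR-205-3p for slick oil at 48 hpf and for both oils at 96 hpf. They also include miR-205b for slick oil at 96 hpf. As above, these calls of miR-205-3p and miR-205b are not counted as support. Shares over all names in the deposited tables are not given here, so these counts have no background beside them.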

How the data were processed

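Small RNA counts of whole mahi-mahi animals in 27 libraries (9 groups of 3) were analysed. The authors deposited whole-number counts per miRNA name, unscaled, in 6 tables of 3 oil and 3 control libraries, and per the file headers 6 further tables of log2 fold changes (with errors) and p-values. DESeq2 is named in the submitters' processing notes. Not given in the sources used here are its version, the aligner, the set of miRNAs matched and how reads were counted, so reads shared by paralogs cannot be divided between names.

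The members and lists were chosen with earlier results of these data known. Counts were fitted in R 4.3.3 with edgeR 4.0.16: filterByExpr (min.count of 10), TMM, quasi-likelihood F test, two-sided, Benjamini-Hochberg over all names of the fit, threshold 0.05. Oil was compared with control within its table. Slick against source oil, control stages and the effect by stage used names with equal control counts between tables (913 over all tables), which leaves miR-205 and miR-429-3p out of some fits. The SE is that of the fitted log2 fold change, and intervals are 1.96 SE either side. Tests were checked on simulated independent counts. These had no counts shared between names, no trend over abundance and no spread below sampling noise. The check therefore does not cover those features of the data.

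Every member past the filter could be named. The name with the highest mean count per number and letter was given in every library, and the 3 most like names outside the members were given, at most 1 per number, with a mean count of at least 10. Alternatives were DESeq2 1.42.0, DESeq2 size factors, library size alone, cyclic loess over abundance (limma 3.58.1), other filters, merged or single names, a replicate block, all groups in 1 fit, the deposited fold changes and dropping each library in turn.

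Replicate numbers recur across the groups of a stage. The correlation of deviations between libraries of 1 number was over 0.1 in each of 3 pairs only for slick oil against control at 96 hpf (0.141 to 0.176). The values given for that comparison are nevertheless from the fit without pairing. The replicate block, run as an alternative, changed no member call of those named in it. Of 27 replicate pairs, 19 had a chi-square per degree of freedom below 1, the value that sampling noise alone would give. Over all 27 pairs it ran from 0.479 to 1.87. Counts may therefore not be of independent reads. Because this was so common, pairs were kept as replicates. Where only 1 pair of a group lay below 1, that pair was averaged in an alternative added after the data were seen. These pairs were slick 1 and 2 and source 1 and 3 at 24 hpf, and control 4 and 5 at 48 hpf. Groups with more pairs below 1, such as slick oil at 48 hpf (lowest 0.479), were not averaged. Blank lines (6813, all in the slick oil file of 24 hpf) were left out. Precision is limited by 3 libraries per group and totals of 51925 to 93055.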

Additional observations from a re-analysis of the deposited data

Results flagged for a closer look

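The effect of slick oil differed between stages for miR-200a-3p (adjusted p = 0.0155), miR-200b (0.00194), miR-203b-5p (0.00398), miR-205-5p (0.0126) and miR-205b (0.0341), by edgeR's test of both oil-by-stage terms. The effect of source oil differed between stages for miR-200-3p (adjusted p = 0.0295) and miR-205-5p (0.0131). The log2 effect of slick oil on miR-200b differed from that at 24 hpf by 0.16 ± 0.10 at 48 hpf and by -0.32 ± 0.10 at 96 hpf. With the trend over abundance removed miR-200b no longer passed (adjusted p = 0.265), nor did miR-200a-3p (0.678), miR-205b (0.178) or, under source oil, miR-200-3p (0.297). The call of miR-200a-3p also ended without slick oil replicate 9 (adjusted p = 0.107), and that of miR-205b ended in 10 of 18 leave-one-out fits. For miR-200-3p under source oil it ended without source oil replicate 2 (adjusted p = 0.0708), control replicate 3 (0.0778) or control replicate 8 (0.0582).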

How the results depend on the processing

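Shares of member names called are given in percent. The share of all names called moved as well, in 9 comparisons by DESeq2 and 2 with the abundance trend removed. For the members it moved in 3 and 3. Shares over all names under each setting are not given beside the values below, so these cannot be read as particular to the members. Under slick oil at 24 hpf 20% were called by DESeq2, 53.3% with the abundance trend removed and 16.1% in the authors' deposited table. Under source oil at 24 hpf 51.6% were called with the trend removed and 40.9% at a mean count of at least 50. At 48 hpf slick oil gave 13.6% at that mean count and 15.4% with 1 name per number and letter, and source oil gave 0% under both and 3.23 to 16.1% with a library left out, the highest without control replicate 6. Slick against source oil at 96 hpf gave 0 to 3.33% with a library left out, the highest without slick oil replicate 7. The effect of slick oil by stage gave 20.7% by DESeq2 and 27.6 to 62.1% with a library left out, the lowest without control replicate 4. That of source oil gave 0% by DESeq2, 31% with the trend removed, 28.6% with no filter, 35.7% with identical names merged and 0 to 31% with a library left out, the lowest without control replicate 8. miR-203 at 96 hpf changed sign with the trend removed (0.23 under slick oil, 0.22 under source oil). In the source oil by-stage fit, library size alone moved the median difference of all names to 0.26, from 0.14 with TMM. With the replicate block, 60% of members were called under slick oil at 96 hpf, as without it, and in the other groups, which share only a number, the block ended miR-205b under slick oil at 24 hpf (adjusted p = 0.0676) and let miR-200-3p pass by stage under slick oil (0.41, adjusted p = 0.0172). Averaging closely agreeing replicates left each share of member names within 1.5 times. The causes were not tested.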
